A study of Mus musculus with 4 samples.

Results

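The genes of 10 proteins that cross the cell membrane 4 times were examined in B220+ B cells of the spleen. They are *Ms4a1*, which encodes CD20, its relatives *Ms4a4c* and *Ms4a6c*, and the 7 tetraspanins *Cd37*, *Cd53*, *Cd63*, *Cd82*, *Cd151*, *Tspan13* and *Tspan32*. These 10 of the 55401 genes listed in the count files were taken by their symbols. The RNA-seq covers 4 libraries, 2 from NSD1B WT mice (Mb1-Cre+ NSD1+/+) and 2 from NSD1B KO mice (Mb1-Cre+ NSD1fl/fl), on a C57BL/6J background. Both groups carry Mb1-Cre, which is driven from the *Cd79a* locus in the B lineage, so the controls share the Cre and differ in the floxed exons 6 to 8 of *Nsd1*. The mice of the study were 7 to 9 weeks old and of both sexes, and the age and sex of the mice behind each library, and whether the 2 libraries of a group came from different mice, were not found in the labels or methods. If they did not, the p-values below measure only technical spread.

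Tetraspanins are small membrane proteins that bind each other and neighbouring receptors, integrins and proteases, and gather them into patches of the membrane. B cells carry several of them: CD37 acts in B cell survival and antibody responses, and CD53 is present on most white blood cells. The MS4A proteins also cross the membrane repeatedly but form a separate family. CD20 is the best known of them, a B cell protein tied to calcium signals of the B cell receptor and the target of therapeutic antibodies such as rituximab, whereas most other family members are better known from myeloid or T cells.

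The counts on genes ranged from 6769118 to 7566834 per library, and 1 count was worth 0.137 to 0.149 CPM (counts scaled to library size, with the TMM factors of edgeR). *Nsd1* itself was counted 497 and 480 times in NSD1B WT and 284 and 280 times in NSD1B KO, a log2 fold change of -0.74 (SE 0.11, adjusted p = 8.08e-08, edgeR's quasi-likelihood test). The labelled cell type was checked with 10 genes of B cells, whose summed level was 52144 and 52137 CPM in NSD1B WT and 43195 and 42580 CPM in NSD1B KO. Most of this sum was *Cd74*, the invariant chain of MHC class II, which myeloid antigen-presenting cells also express. Of the 10 genes, 2 were called higher and 6 lower, by the limits given below. Over all 11657 tested genes 78.2% were called, 37.1% higher and 41.1% lower, so this count is near that share. *Pax5*, a factor that defines B cells, had 279 and 342 counts in NSD1B WT and 30 and 31 in NSD1B KO. *Ebf1* of the same list went the other way, from 329 and 372 counts to 577 and 558. *Bank1* rose as well, from 2558 and 2644 counts to 3900 and 3342. Genes of other cells were also counted. The 12 genes of monocytes, macrophages and neutrophils summed to 6736 and 6908 CPM in NSD1B WT and 8482 and 7984 CPM in NSD1B KO, led by *Lyz2*, with 8 called higher and 3 lower and none at 0 in all libraries. The 7 erythroid genes summed to 40.3 and 36.8 CPM against 1948 and 1695 CPM, with 6 called higher. Beside the calls of both lists stand the 37.1% of all tested genes called higher and the 41.1% called lower. The summed levels of the other lists, in the order of NSD1B WT and then NSD1B KO libraries, were 80.0, 75.4, 69.6 and 63.0 CPM for 10 T cell genes and 55.8, 59.6, 101 and 102 CPM for 6 NK cell genes. They were 27.3, 25.9, 29.7 and 22.3 CPM for 8 dendritic cell genes, 154, 167, 223 and 232 CPM for 6 platelet genes, and 273, 267, 231 and 230 CPM for 6 plasma cell genes. Of the T cell genes *Cd4* and *Cd8a*, of the NK cell genes *Ncr1* and *Gzma*, of the dendritic cell genes *Siglech*, *Itgax*, *Flt3*, *Zbtb46* and *Clec9a*, and of the plasma cell genes *Sdc1* and *Tnfrsf17* were at 0 in all libraries, as were 5 of the 6 platelet genes, all but *Pf4*.

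All 10 genes were counted and passed the filter on low counts. A gene was called when it differed by more than 1.2-fold with an adjusted p under 0.05. These are the limits in the methods of the study, with p taken here as adjusted. *Ms4a4c* and *Cd82* rose in NSD1B KO, *Ms4a1*, *Ms4a6c*, *Cd37* and *Cd151* fell, and *Cd53*, *Cd63*, *Tspan13* and *Tspan32* were not called. These 2 higher and 4 lower genes of 10 stand against 78.2% of all 11657 tested genes called, 37.1% higher and 41.1% lower. *Cd151* passed the filter only through its NSD1B WT counts, so it had to differ. With only genes of at least 1 CPM in all 4 libraries, 3 of the 10 were called lower. In 7 of the 10 genes the libraries of the groups did not overlap, which held for 88.1% of all tested genes. Stricter limits, which the study also used, were an adjusted p below 1e-05 and a log2 fold change beyond 0.5. They were passed by 57.2% of the tested genes and, of the 10, by *Ms4a4c*, *Ms4a1* and *Cd151*. As a gene that had to differ, *Cd151* adds nothing to this count. The median log2 fold change of the 10 genes was -0.06, beside -0.10 over all tested genes. The count called is thus no higher than in the data at large, and what follows describes the genes one by one.

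**Figure D1:**
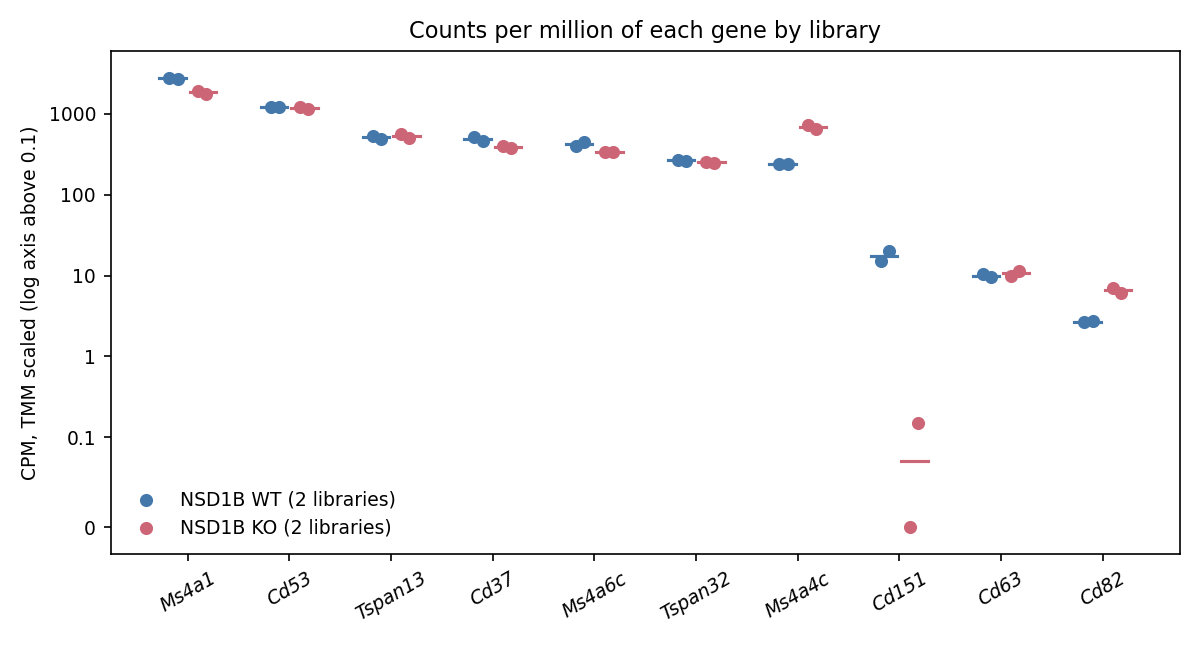
CPM (TMM scaled) of the 10 genes in each library, on an axis that is logarithmic above 0.1 and linear below. Points are libraries (blue, 2 NSD1B WT; red, 2 NSD1B KO) and short lines are group means. *Ms4a1* is the highest gene in every library, the *Ms4a4c* points of NSD1B KO lie above those of NSD1B WT, and *Cd151* drops to 0 and 0.149 CPM in NSD1B KO.

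*Ms4a1* (ENSMUSG00000024673.9, chromosome 19, 11249675 to 11266241, minus strand, mm10) had the most counts of the 10. It was counted 19792 and 19910 times in NSD1B WT and 13895 and 11830 times in NSD1B KO. This was 2747 ± 32.7 CPM against 1845 ± 122 CPM (mean ± SD, n = 2 libraries), so both NSD1B KO libraries lay below both NSD1B WT libraries. The gene fell by 0.57 on the log2 scale (SE 0.08, adjusted p = 2.67e-09, edgeR's quasi-likelihood test), a level 32.8% lower. In bulk RNA, fewer cells that carry a transcript and less transcript per cell cannot be told apart. *Ms4a1* made up 0.285% and 0.279% of all gene counts in NSD1B WT and 0.184% and 0.175% in NSD1B KO.

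Ratios of counts within a library need no scaling between libraries. For each count of *Cd53* there were 2.30 and 2.23 counts of *Ms4a1* in NSD1B WT and 1.60 and 1.55 in NSD1B KO. For each count of *Cd79b*, a signalling chain of the B cell receptor, there were 0.403 and 0.402 counts of *Ms4a1* in NSD1B WT and 0.226 in both NSD1B KO libraries. Against *Cd79a*, the partner chain of *Cd79b*, the ratio went the other way, from 1.36 and 1.40 to 2.38 and 2.29, since *Cd79a* itself had fallen further. *Ms4a1* therefore lay between the 2 receptor chains in its change. *Cd79a* is also the locus that carries Mb1-Cre, in both groups.

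Likeness to *Ms4a1* over the 4 libraries was measured for the 3552 genes whose mean log2 CPM reached 5. The closest were *H2-Eb1*, *Itm2b* and *H2-Aa*. Their Euclidean distances to it, on centred log2 CPM, were 0.0349, 0.0367 and 0.0393. *H2-Eb1* and *H2-Aa* encode chains of MHC class II and fell by 0.55 each on the log2 scale, and *Itm2b*, a membrane protein gene, fell by 0.59. With only 4 libraries in 2 groups, 86 genes lay within a distance of 0.1.

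*Ms4a4c* (ENSMUSG00000024675.19) and *Ms4a6c* (ENSMUSG00000079419.4) lie on the same chromosome and the plus strand, from 11404770 to 11427246 and from 11469366 to 11482192. *Ms4a4c* was counted 1726 and 1733 times in NSD1B WT and 5181 and 4339 times in NSD1B KO, or 239 ± 3.17 and 682 ± 53.1 CPM (mean ± SD, n = 2). It rose by 1.51 on the log2 scale (SE 0.08, adjusted p = 5.05e-22, edgeR's quasi-likelihood test), to 2.85 times its level in NSD1B WT. Both NSD1B KO libraries were far above both NSD1B WT libraries. *Ms4a4c* reads can be shared to a small extent, since 8.19% of the 50-base stretches of its transcripts also occur in another gene, nearly all of them in *Ms4a4b*.

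*Ms4a6c* moved the opposite way and by less. Its counts were 2847 and 3292 in NSD1B WT and 2417 and 2284 in NSD1B KO, or 424 ± 36.7 and 338 ± 2.56 CPM (mean ± SD, n = 2). The groups did not overlap, and it fell by 0.33 on the log2 scale (SE 0.08, adjusted p = 0.000225, edgeR's quasi-likelihood test). Without NSD1B WT replicate 2, the higher of that pair, the value was -0.21, under the fold limit (adjusted p = 0.0205, edgeR's quasi-likelihood test). As a ratio within libraries, *Ms4a4c* had 0.606 and 0.526 counts for each *Ms4a6c* count in NSD1B WT and 2.14 and 1.90 in NSD1B KO, so the order of this pair turned over in both NSD1B KO libraries.

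The value of *Ms4a6c* is uncertain for another reason. On the opposite strand, the non-coding gene *BE692007* covers 1088 of its 2050 exon bases, and 51.4% of its 50-base stretches occur in other genes, mostly there. *BE692007* was counted 1854 and 2119 times in NSD1B WT and 3491 and 3285 times in NSD1B KO, a log2 fold change of 0.83 (SE 0.08, adjusted p = 4.59e-13, edgeR's quasi-likelihood test). How the counting treated strand was not found in the labels or methods, and without strand the reads of the overlapping part cannot be told apart.

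The stretches upstream of the start sites of these 2 neighbours are shown because the genes are close relatives that moved in opposite directions. Each is the 250 bases before the start in RefSeq (GRCm38.p6), written 5′ to 3′ on the strand of the gene, with an octamer match in capitals. The *Ms4a4c* start in RefSeq lies inside the span annotated by GENCODE, downstream of its first base. The octamer is the site of the OCT factors of B cells.
Ms4a4c, chr19:11407411-11407660, plus strand: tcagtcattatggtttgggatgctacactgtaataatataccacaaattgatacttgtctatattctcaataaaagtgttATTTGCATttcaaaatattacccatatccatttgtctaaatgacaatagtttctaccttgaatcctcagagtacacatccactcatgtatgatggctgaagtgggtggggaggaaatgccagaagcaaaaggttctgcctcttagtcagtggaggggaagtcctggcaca
Ms4a6c, chr19:11469118-11469367, plus strand: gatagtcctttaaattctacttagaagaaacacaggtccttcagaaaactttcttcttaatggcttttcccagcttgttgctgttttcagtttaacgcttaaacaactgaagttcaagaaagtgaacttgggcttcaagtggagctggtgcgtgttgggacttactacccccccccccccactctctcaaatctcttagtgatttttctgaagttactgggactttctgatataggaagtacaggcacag

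The octamer (ATGCAAAT, either strand) was matched once upstream of *Ms4a4c*, at bases -170 to -163, and not upstream of *Ms4a6c*. It occurs in 1.60% of the 32851 RefSeq windows of this length. Of the 9 genes with an entry, *Tspan13* also held 1 match, at -120 to -113, and *Tspan13* was not called. A TATA match (TATAAA) and an interferon response match (GAAA, any 2 bases, GAAA), sought on both strands, were in none of the 13 windows of these genes and in 12.4% and 2.98% of all windows. These are matches of letters only, not sites. The *Ms4a4c* window held no CpG and the *Ms4a6c* window 2, where the median window holds 6.

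The other genes of the family were taken as a list of 18 *Ms4a* genes, all on chromosome 19 within 679 kb (10962293 to 11640851), which includes the 3 described above. Of the 18, 9 were tested, and 6 rose, 2 fell and 1 was not called, where 37.1% of all tested genes were called higher and 41.1% lower. Their median log2 fold change was 1.49, beside -0.10 over all tested genes. *Ms4a1* and *Ms4a6c* were the 2 that fell. The 5 others that rose besides *Ms4a4c* included *Ms4a6b*, counted 687 and 785 times in NSD1B WT and 2082 and 1893 times in NSD1B KO (log2 fold change 1.49, adjusted p = 1.11e-20, edgeR's quasi-likelihood test).

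*Ms4a6d* was counted 40 times in each NSD1B WT library and 224 and 211 times in NSD1B KO (log2 fold change 2.49). *Ms4a8a* rose from 78 and 98 counts to 363 and 300 (log2 fold change 1.96), and *Ms4a4b*, known from T cells, from 953 and 960 to 1471 and 1244 (0.56). *Ms4a4a* had no count in NSD1B WT and 43 and 36 counts in NSD1B KO. That makes it at least 27.3-fold higher, taken against a limit of 3 counts over the NSD1B WT libraries. Such a gene passed the filter only through the group where it was counted, so it had to differ. *Ms4a7*, the 1 tested gene not called, is named after its values were seen and had 94 and 78 against 118 and 94 counts. Of the other 9, 8 were at 0 in all libraries and *Ms4a3* had 1 count in all.

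The rise of these *Ms4a* genes, which *Ms4a6c* and *Ms4a7* did not share, stood beside a rise of myeloid genes. *Csf1r*, the receptor of the macrophage growth factor CSF-1, went from 23 and 27 counts to 375 and 335, and *Ly6c2*, a monocyte gene, from 49 and 38 to 603 and 508. The direction was not shared by the whole list, since *Itgam*, *Ccr2* and *S100a8* fell. *Ccr2*, a receptor of classical monocytes, had 115 and 110 counts in NSD1B WT and 21 and 25 in NSD1B KO. The methods of the study state that only B220+ cells sorted to high purity were used for RNA. The part of myeloid cells in the values of *Ms4a4c* and its relatives was not tested.

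**Figure D2:**
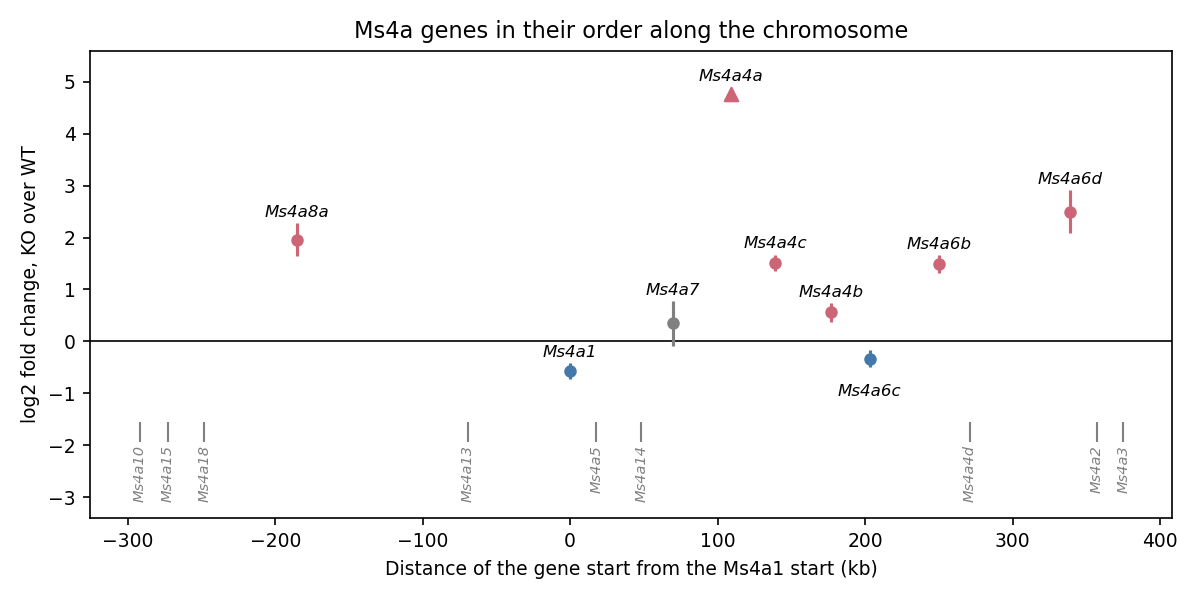
Log2 fold change (NSD1B KO over NSD1B WT) of the *Ms4a* genes against the distance of their start from that of *Ms4a1* in kb, with bars for the 95% interval of the fit. Red genes were called higher, blue genes lower and the gray point was not called; the triangle marks the lower limit for *Ms4a4a*, and gray ticks at the bottom mark genes that were not tested. *Ms4a1* and *Ms4a6c* lie below 0, with genes that rose on either side of *Ms4a6c*.

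Among the tetraspanins, *Cd53* (ENSMUSG00000040747.9, chromosome 3, 106759921 to 106790149, minus strand) was the most abundant. It acts in white blood cells as an organiser of adhesion and cytokine receptors. There were 8605 and 8914 *Cd53* counts in NSD1B WT against 8670 and 7631 in NSD1B KO, which is 1212 ± 10.7 and 1170 ± 49.9 CPM (mean ± SD, n = 2). The groups overlapped, and the log2 fold change of -0.05 had a 95% interval from -0.20 to 0.10 (adjusted p = 0.535, edgeR's quasi-likelihood test). A change of more than 0.20 in size was thus outside the interval of this fit. After removal of a trend in exon length and GC content *Cd53* was called lower, at -0.31 (adjusted p = 0.00139, edgeR's quasi-likelihood test, while the alternatives spanned 0.00124 to 0.979).

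*Cd37* (ENSMUSG00000030798.15, chromosome 7, 45233632 to 45239115, minus strand) encodes a tetraspanin of mature B cells. It was counted 3712 and 3410 times in NSD1B WT and 2898 and 2514 times in NSD1B KO, or 493 ± 37.5 and 388 ± 20.5 CPM (mean ± SD, n = 2). The libraries of the groups did not overlap, and it fell by 0.34 on the log2 scale (SE 0.08, adjusted p = 0.000120, edgeR's quasi-likelihood test). The call did not hold in 4 of 15 alternatives, among them the stricter limits. Without NSD1B WT replicate 1 the value was -0.23, under the fold limit (adjusted p = 0.00985, edgeR's quasi-likelihood test). After removal of the trend in length and GC it turned to 0.11, with or without the replicate block. The longest transcript of *Cd37* has a GC content of 57.3% and that of *Cd53* 40.0%, and this correction raised the value of *Cd37* and lowered that of *Cd53*. Against *Cd53* in the same library, *Cd37* had 0.431 and 0.383 counts per count in NSD1B WT and 0.334 and 0.329 in NSD1B KO.

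*Tspan13* (ENSMUSG00000020577.17, chromosome 12, 36014557 to 36042500, minus strand) and *Tspan32* (ENSMUSG00000000244.17, chromosome 7, 143005046 to 143019644, plus strand) were abundant and not called. *Tspan13* was counted 3774 and 3581 times in NSD1B WT and 4081 and 3362 times in NSD1B KO, or 509 ± 27.1 and 533 ± 47.7 CPM (mean ± SD, n = 2). The groups overlapped for *Tspan13*, and its log2 fold change of 0.07 had a 95% interval from -0.09 to 0.23. *Tspan32*, a tetraspanin of blood cells known for restraining T cell growth, was counted 1910 and 1919 times in NSD1B WT and 1834 and 1665 times in NSD1B KO, or 265 ± 3.38 and 251 ± 5.22 CPM. Its libraries did not overlap once scaled, but the difference was small, at -0.08 with a 95% interval from -0.24 to 0.08. Its antisense gene *Tspan32os*, which shares 271 exon bases with it, was at 0 in all libraries.

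The remaining 3 tetraspanins were counted far less often. *Cd63* (ENSMUSG00000025351.14, chromosome 10, 128900989 to 128912822, plus strand), a protein of lysosomes and of secreted vesicles, had 74 and 70 counts in NSD1B WT and 71 and 77 in NSD1B KO. The groups overlapped, and the log2 fold change of 0.10 had a 95% interval from -0.39 to 0.58, which is wide for want of counts. After removal of the trend in length and GC *Cd63* was called higher, at 0.59 (adjusted p = 0.0240, edgeR's quasi-likelihood test, while the alternatives spanned 0.0240 to 0.980). Of its 50-base stretches 11.1% occur in other genes, mostly the pseudogene *Cd63-ps*, which had 1 or 2 counts a library.

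*Cd82* (ENSMUSG00000027215.13, chromosome 2, 93419111 to 93463140, minus strand), known as a suppressor of metastasis in tumours, was the rarest of the 10 in NSD1B WT. It had 19 and 20 counts there and 51 and 41 counts in NSD1B KO, or 2.70 ± 0.0544 and 6.59 ± 0.702 CPM (mean ± SD, n = 2). Every NSD1B KO library was above every NSD1B WT library, and it rose by 1.28 on the log2 scale (SE 0.35, adjusted p = 0.000905, edgeR's quasi-likelihood test). At this depth the size of the rise is known only roughly, with a 95% interval from 0.58 to 1.99.

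*Cd151* (ENSMUSG00000025510.14, chromosome 7, 141467392 to 141471473, plus strand), a partner of the integrins that bind laminin, was nearly absent from NSD1B KO. It was counted 108 and 146 times in NSD1B WT, or 17.5 ± 3.44 CPM (mean ± SD, n = 2). In NSD1B KO it had 0 counts in replicate 1 and 1 count in replicate 2. With 254 counts against 1 the level was 245-fold lower, with a 95% counting interval from 43.5 to 9700 (exact Clopper-Pearson on the counts, for counting error only). *Cd151* passed the filter only through its NSD1B WT counts, so it had to differ, and no p-value is given for it. The antisense gene *Gm10575*, which overlaps 193 of its exon bases, was at 0 in all libraries.

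The windows upstream of *Cd53* and *Cd151* are shown as those of the most abundant tetraspanin and of the one that was nearly absent from NSD1B KO. For *Cd151* it is the first of 2 starts in RefSeq. They are written as above, without capitals since neither held an octamer, TATA, interferon response or PU.1-type ETS match (GAGGAAG, either strand, in 10.6% of all windows).
Cd53, chr3:106790150-106790399, minus strand: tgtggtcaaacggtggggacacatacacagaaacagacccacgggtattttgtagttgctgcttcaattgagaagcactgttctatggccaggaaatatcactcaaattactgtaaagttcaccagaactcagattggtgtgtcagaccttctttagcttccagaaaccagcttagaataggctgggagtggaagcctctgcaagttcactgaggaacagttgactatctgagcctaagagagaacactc
Cd151, chr7:141467112-141467361, plus strand: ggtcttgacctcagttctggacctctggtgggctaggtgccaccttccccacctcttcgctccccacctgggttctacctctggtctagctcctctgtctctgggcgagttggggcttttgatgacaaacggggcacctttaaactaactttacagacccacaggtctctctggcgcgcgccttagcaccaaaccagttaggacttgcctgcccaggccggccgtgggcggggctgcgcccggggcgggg

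The *Cd53* window held 2 CpG and the *Cd151* window 12, more than 66.5% of all windows. The PU.1-type match occurred upstream of *Cd37* at -24 to -18, *Tspan32* at -18 to -12, *Cd63* at -60 to -54 and 1 of the 4 starts of *Cd82* at -225 to -219. Of these, *Cd37* was called lower, *Cd82* higher, and *Tspan32* and *Cd63* were not called.

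**Figure D3:**
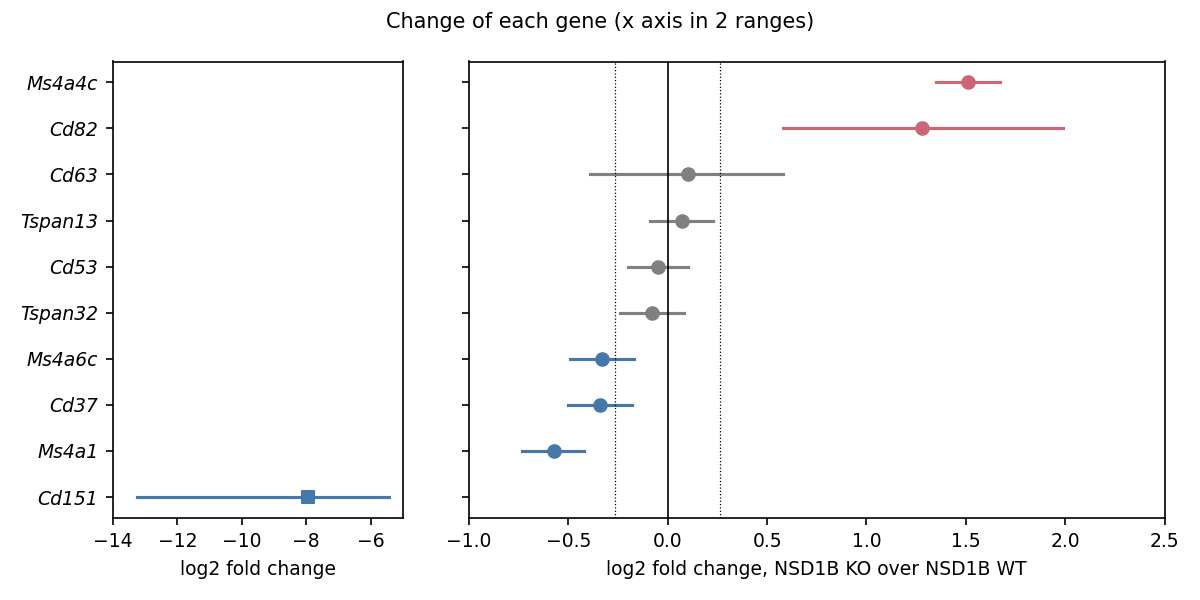
Log2 fold change (NSD1B KO over NSD1B WT) of the 10 genes with the 95% interval of the fit, on an x axis drawn in 2 ranges. Blue genes were called lower, red higher and gray were not called; dotted lines mark the fold limit of 1.2. *Cd151* (square) is drawn as its ratio of counts with the counting interval, from -13.24 to -5.44, and the intervals of *Cd53*, *Cd63*, *Tspan13* and *Tspan32* include 0.

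To compare levels between genes, CPM were divided by the exon length of each gene in GENCODE M21. This length counts every annotated exon, so it is too long for a gene that uses a short transcript. In NSD1B WT the order was *Cd53* (696 ± 6.16 CPM per kb), *Ms4a1* (444 ± 5.28), *Ms4a6c* (207 ± 17.9), *Tspan13* (206 ± 10.9), *Cd37* (140 ± 10.6), *Ms4a4c* (137 ± 1.81), *Tspan32* (42.5 ± 0.543), *Cd151* (6.40 ± 1.25), *Cd63* (2.71 ± 0.150) and *Cd82* (0.898 ± 0.0181; mean ± SD, n = 2). Within this order *Ms4a6c* and *Tspan13* overlapped, as did *Cd37* and *Ms4a4c*. In NSD1B KO *Ms4a4c* stood second, at 390 ± 30.3 CPM per kb, above *Ms4a1* at 298 ± 19.7, and no neighbours overlapped. *Cd151* went from the eighth place to the last.

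**Figure D4:**
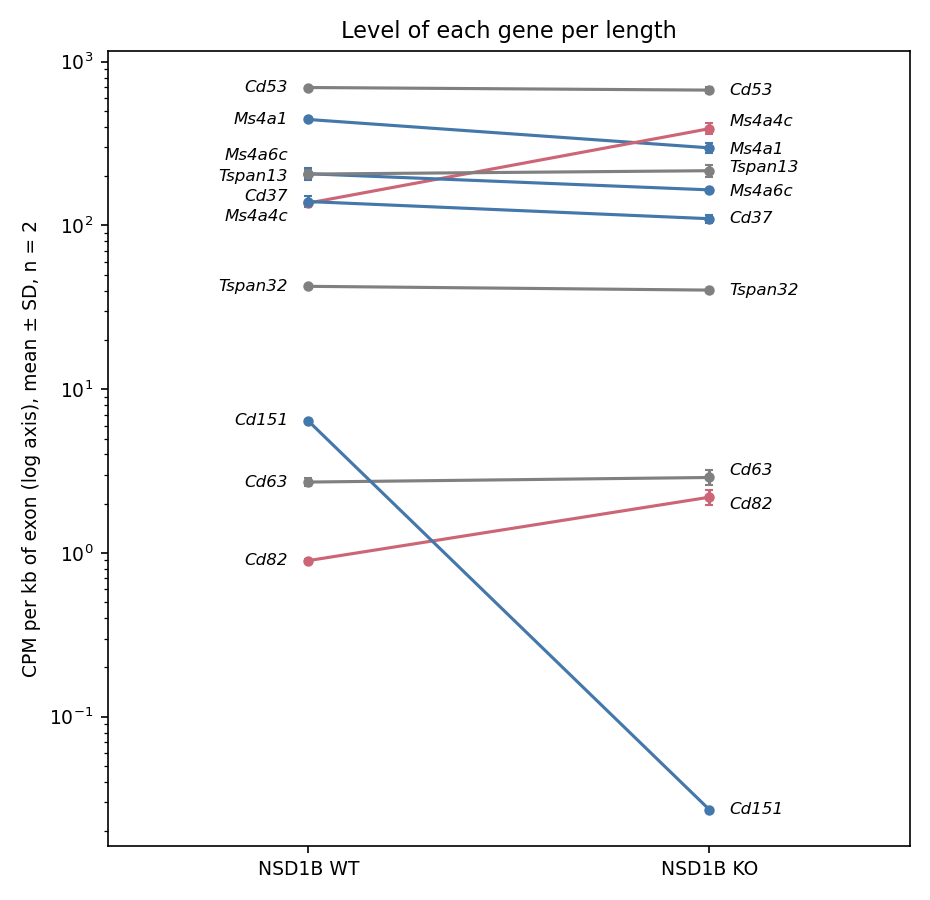
Level of each gene per length in the 2 groups, as mean CPM per kb of exon on a log axis, with SD over 2 libraries (no SD is drawn for *Cd151*, whose lower bound in NSD1B KO reaches 0). Blue lines are genes called lower, red higher and gray not called. The line of *Ms4a4c* crosses those of *Cd37*, *Ms4a6c*, *Tspan13* and *Ms4a1*, from 137 to 390 CPM per kb.

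The 10 genes took 0.612% and 0.603% of all gene counts in NSD1B WT and 0.517% and 0.498% in NSD1B KO. *Ms4a1* made up 46.5% and 46.3% of these in NSD1B WT and 35.5% and 35.1% in NSD1B KO. Without *Ms4a1*, the other 9 genes together held 0.328% and 0.324% in NSD1B WT and 0.333% and 0.324% in NSD1B KO, so their sum overlapped between the groups.

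The wider tetraspanin family was taken as a list of 31 genes. Of these, 17 were tested, 2 rose, 8 fell and 7 were not called, where 78.2% of all tested genes were called. Of the 8 that fell, 5 passed the filter only through NSD1B WT. The list had a median log2 fold change of -0.18 beside -0.10 over all tested genes. The most abundant of those not yet described were *Cd81*, *Cd9* and *Tspan31*. *Cd9*, which marks marginal zone and B1 cells among mouse B cells, had 2554 and 2617 counts in NSD1B WT and 1343 and 1181 in NSD1B KO, or 358 and 181 CPM on average. It fell by 0.98 on the log2 scale (SE 0.08, adjusted p = 2.80e-15, edgeR's quasi-likelihood test), and the groups did not overlap. *Cd81* had 4509 and 4672 against 4198 and 3597 counts, and its log2 fold change of -0.18 (adjusted p = 0.0271, edgeR) was under the fold limit. *Tspan31* was not called, at 0.14 (adjusted p = 0.125, edgeR).

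Per count of *Cd81* there were 0.566 and 0.560 counts of *Cd9* in NSD1B WT and 0.320 and 0.328 in NSD1B KO. Of the rarer tetraspanins, *Tspan14* rose from 64 and 75 to 167 and 174 counts (log2 fold change 1.35, adjusted p = 2.78e-08, edgeR). *Upk1a*, better known from the bladder, fell from 107 and 110 to 63 and 62 counts (-0.74, adjusted p = 0.00273, edgeR). *Tspan3*, *Tspan4*, *Tspan5* and *Tspan18* had 70, 240, 38 and 80 counts over the NSD1B WT libraries and none in NSD1B KO, which makes them at least 22.5-, 77.1-, 12.2- and 25.7-fold lower against a limit of 3 counts. These 4 genes, like *Cd151*, passed the filter only through NSD1B WT. *Tspan11* went the other way, with no count in NSD1B WT and 11 and 6 in NSD1B KO, but it did not pass the filter. Of the 31, 12 were at 0 in all libraries.

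A list of 21 partners of these proteins was taken from textbook knowledge. Of the 20 tested, 3 rose, 12 fell and 5 were not called. This share is near the 78.2% called among all tested genes and is no result about the partners. The list had a median log2 fold change of -0.36 beside -0.10 over all tested genes. *Cr2*, the gene of the complement receptor CD21, fell from 304 and 277 counts to 17 and 26 (-3.69, adjusted p = 3.40e-20, edgeR). All 3 integrin chains of the list fell: *Itga4* by 0.34, *Itgb1* by 0.33 and *Itga6* by 1.39 on the log2 scale. *Itga6*, part of a laminin receptor that binds CD151, had 209 and 217 counts in NSD1B WT and 69 and 87 in NSD1B KO.

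*Adam10*, the gene of a protease, rose from 307 and 301 to 865 and 707 counts (log2 fold change 1.42, adjusted p = 6.27e-17, edgeR). Its relative *Adam17* was not called, at -0.16. The AP-3 adaptor carries CD63 to lysosomes, and its subunits did not move together. *Ap3m1* rose by 2.25 on the log2 scale, *Ap3d1* fell by 1.06, and *Ap3b1* had 158 and 145 counts in NSD1B WT against 0 and 3 in NSD1B KO, 97.3-fold lower (95% counting interval 33.0 to 474, exact Clopper-Pearson). *Ap3b1* too passed the filter only through NSD1B WT. *Sdcbp*, the gene of syntenin, which also binds CD63, was not called, at -0.12.

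*Ptpn6*, the gene of the phosphatase SHP-1, fell by 0.38, and *Zdhhc2*, an enzyme that attaches palmitate to tetraspanins, fell by 0.95, from 49 and 29 to 26 and 13 counts. The MHC class II genes *H2-Aa* and *H2-Ab1* fell by 0.55 and 0.68 on the log2 scale. Of the receptor chains, *Cd79a* fell by 1.33, while *Cd79b* (0.26, adjusted p = 0.00213, edgeR) stayed just under the fold limit with a value above 0. *Cd40* rose by 0.46 (adjusted p = 0.000848, edgeR). The myeloid and erythroid genes given above moved along with all of these changes, and their part was not tested.

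The calls of *Ms4a1* and *Ms4a4c* held in each of 15 alternatives of scaling, test, filter, libraries and limits, with log2 fold changes from -0.85 to -0.50 and from 1.19 to 1.60. *Cd151*, which passed the filters only through NSD1B WT, is left out of this count. *Tspan13* was called in none of 15, at -0.03 to 0.16, and *Tspan32* in none of 15, at -0.16 to 0.25.

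**Figure D5:**
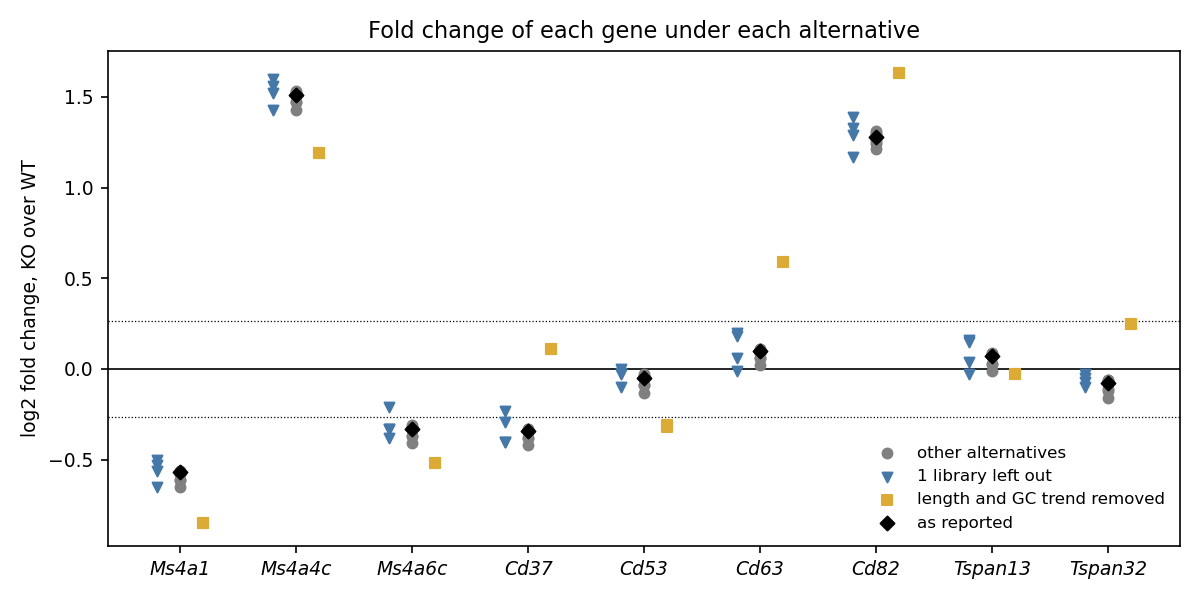
Log2 fold change (NSD1B KO over NSD1B WT) of 9 genes as reported (black) and under each alternative: 1 library left out (blue), length and GC trend removed (yellow), all others (gray). Dotted lines mark the fold limit of 1.2, and *Cd151*, with 1 count in NSD1B KO, is not drawn. *Ms4a1* and *Ms4a4c* stay on their side of both lines, and *Cd37* moves from -0.34 to 0.11 when the trend is removed.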

How the data were processed

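Paired-end reads came from RNA of sorted splenic B220+ cells. The authors mapped the reads to mm10 with Bowtie2 and deposited a raw count per gene and library. Cufflinks is named for FPKM, which was not used here. Which program counted the reads, how it treated strand and which annotation it used is not stated in the labels or methods. Lines that name no gene held 58.0% to 60.0% of the counted reads and stayed out of library sizes and tests.

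Genes were taken by symbol, and 99.5% of identifiers matched GENCODE M21 (GRCm38) for positions and exon lengths. Counts were scaled by TMM, kept by filterByExpr (minimum count 10, minimum total 15) and tested by the quasi-likelihood test of edgeR 4.0.16 in R 4.3.3, with Benjamini-Hochberg adjustment over 11657 genes. GC content is that of the longest transcript. Upstream sequences were read from RefSeq. The fit was tested on simulated data in which 198 of 11268 genes changed by 1 on the log2 scale. It recovered 71.2% of them, and 2.08% of its calls were false. Far fewer genes changed there than the 78.2% called here, so the simulation does not test the fit for such data.

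Alternatives were other scalings, the DESeq2 1.42.0 Wald test, limma-voom (limma 3.58.1), 2 other filters, each library left out, the replicate number as a block, a loess trend (span 0.5) in exon length and GC content removed, this trend with the block, and stricter limits. All named genes follow from the members, the lists of related genes, partners and markers, and the likeness to *Ms4a1*. From the lists, genes were named when called or when their mean log2 CPM reached 5. *Ms4a3*, *Ms4a7*, *Tspan11* and the overlapping genes are exceptions picked with their values in view. Marker genes were named when at 0 in all libraries or most abundant in their list. Exceptions picked in the same way are *Pax5*, *Ebf1*, *Bank1*, *Csf1r*, *Ly6c2*, *Itgam*, *Ccr2* and *S100a8*. The members and lists were chosen with earlier results of these data known. Some listed genes are not reported here by name.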

Additional observations from a re-analysis of the deposited data

How the results depend on the processing

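Of the called genes among the 10, the direction turned for *Cd37*, to a log2 fold change of 0.11 after removal of the trend in length and GC and 0.11 after its removal together with the replicate block. The cause was not tested. The same 2 settings called *Cd53* lower (-0.31 and -0.32) and *Cd63* higher (0.59 in both). Without 1 NSD1B WT library each, the values of *Ms4a6c* and *Cd37* lay under the fold limit, as given above. The calls of *Ms4a6c*, *Cd37* and *Cd82* were lost under the stricter limits of an adjusted p below 1e-05 and a log2 fold change beyond 0.5. These limits left 1 of the 10 genes higher and 2 lower in place of 2 and 4. *Cd151*, 1 of these lower genes, passed the filter only through NSD1B WT. With only genes of at least 1 CPM in all 4 libraries, a filter that removes genes at 0 in a group, 2855 genes were higher and 2991 lower, in place of 4324 and 4795, and 3 listed tetraspanins were lower in place of 8. The stricter limits left 1 listed tetraspanin higher in place of 2, 1 *Ms4a* gene lower in place of 2, and 7 partners lower in place of 12. Without NSD1B WT replicate 2, 1 *Ms4a* gene was lower in place of 2.

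The libraries of the 2 groups share replicate numbers, but nothing says that equal numbers mark a shared litter or day, and the deviations of same-numbered libraries correlated at 0.06 over 11657 genes. With the replicate number as a block, 4254 genes were higher and 4706 lower, 2 of the 10 genes were higher and 4 lower, and the log2 fold change of *Ms4a1* was -0.58. With 2 libraries a group, no exact permutation test of a single gene can pass 0.05. Counts under about 100 a library limit *Cd63*, *Cd82* and *Cd151* to a rough size of change.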
